A study of Mus musculus with 5 samples.

Results

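Pou5f1 (also called Oct4), Sox2, Nanog, Sall4, Utf1 and Tcf3 are genes of transcriptional regulators that were grouped here as core pluripotency factors. They were picked by their symbols, and each of the 6 symbols occurred once among the 24421 genes of the expression tables. The first 5 were low in fibroblasts and high in the pluripotent libraries, whereas Tcf3, whose symbol denotes E2A, was also well expressed in fibroblasts and is kept by its symbol only. RNA of mouse cells was sequenced as 5 libraries, 1 per group, and read as FPKM, the number of sequenced fragments of a gene corrected for transcript length and for the depth of the library. The groups were mouse embryonic fibroblasts (MEF), induced pluripotent stem cells (iPSC), untreated V6.5 cells, V6.5 cells with a non-targeting control shRNA (NTC) and V6.5 cells with an shRNA against Gldc (shGldc). V6.5 is an established mouse embryonic stem cell (mESC) line. The labels describe the pluripotent cells as grown on gelatin without feeder cells and with leukaemia inhibitory factor, which holds mESCs in an undifferentiated state, and the fibroblasts as grown in serum medium. The methods describe culture on feeder cells as well and do not say which cultures were sequenced. The labels describe the shRNAs as transfected, and the methods describe V6.5 cells that stably expressed them. The expression table names the knockdown column sh3, while the mouse Gldc hairpins that the study lists are called sh1 and sh2, so which hairpin was used is not stated. The methods name iPS lines from a cell repository and also induction of MEFs with retroviral Oct4, Sox2, Klf4 and Myc. Which of these the sequenced iPSCs were, and whether they carried such vectors, is not stated, and FPKM does not tell vector RNA of Pou5f1 and Sox2 from that of the cell's own genes. With 1 library per group there was no replicate check, and every difference below describes a pair of libraries with no p-value.

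Pou5f1 is a POU domain factor and Sox2 an HMG box factor, and the pair binds DNA together at an octamer motif placed next to a SOX motif. Nanog is a homeodomain factor that sustains self-renewal, and Sall4 is a zinc finger factor that occupies many of the same regulatory regions. Utf1 is a chromatin-associated protein restricted largely to pluripotent and germ cells and is itself a target of Oct4 and Sox2. The name Tcf3 has been used for more than 1 gene. The symbol today belongs to E2A, the gene of the E12 and E47 basic helix-loop-helix proteins, which are made in most cell types. In the stem cell literature Tcf3 was also used for Tcf7l1, a TCF/LEF factor that represses pluripotency genes downstream of Wnt, and RefSeq still lists Tcf3 among the older names of Tcf7l1. The row analysed is taken as E2A, and Tcf7l1 is given beside it.

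The DNA just upstream of the annotated starts is shown to set side by side which motifs for these factors the proximal promoters hold, and distal enhancers were not examined. RefSeq promoter windows of GRCm38.p6 (250 bases before to 50 after a start) were matched for 5 of the 6 genes, and the stretch before the first annotated start is printed, 5′ to 3′ on the strand of the gene. Nanog lies at chr6:122707239-122707488 (plus strand), Sox2 at chr3:34649745-34649994 (plus), Pou5f1 at chr17:35505782-35506017 (plus), Utf1 at chr7:139943606-139943788 (plus) and Tcf3 at chr10:80433648-80433885 (minus). Capitals mark matches on either strand to the octamer letters TTTGCAT, the SOX letters ACAATG or the GC box letters GGGCGG.
Nanog: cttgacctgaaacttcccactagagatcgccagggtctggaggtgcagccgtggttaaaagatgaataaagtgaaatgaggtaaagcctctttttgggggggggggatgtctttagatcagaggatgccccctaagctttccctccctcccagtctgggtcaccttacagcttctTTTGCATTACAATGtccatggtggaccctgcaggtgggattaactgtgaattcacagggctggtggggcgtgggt
Sox2: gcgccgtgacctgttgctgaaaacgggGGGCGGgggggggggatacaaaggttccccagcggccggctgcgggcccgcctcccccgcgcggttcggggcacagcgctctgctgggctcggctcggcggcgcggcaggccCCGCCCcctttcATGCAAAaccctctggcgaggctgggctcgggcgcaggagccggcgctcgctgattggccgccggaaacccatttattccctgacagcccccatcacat
Pou5f1: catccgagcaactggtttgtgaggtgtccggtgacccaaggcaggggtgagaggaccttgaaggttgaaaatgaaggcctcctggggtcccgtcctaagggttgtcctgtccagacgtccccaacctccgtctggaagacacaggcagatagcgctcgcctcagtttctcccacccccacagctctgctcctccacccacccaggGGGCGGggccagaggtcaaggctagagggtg
Utf1: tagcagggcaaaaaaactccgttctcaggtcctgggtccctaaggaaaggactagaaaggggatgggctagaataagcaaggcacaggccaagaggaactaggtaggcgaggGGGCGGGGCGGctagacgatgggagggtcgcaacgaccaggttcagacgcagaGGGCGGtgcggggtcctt
Tcf3: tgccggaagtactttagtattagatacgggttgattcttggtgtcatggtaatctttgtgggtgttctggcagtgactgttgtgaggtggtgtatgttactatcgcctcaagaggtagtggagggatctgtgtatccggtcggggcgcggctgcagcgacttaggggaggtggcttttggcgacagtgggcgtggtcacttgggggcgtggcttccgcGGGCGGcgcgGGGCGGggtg

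The Nanog stretch held the octamer and the SOX letters side by side on the plus strand, with 1 base between them, at -75 to -62 bases from the annotated start. The octamer letters followed by any 1 base and then by the SOX letters occurred in 2 of 32851 RefSeq promoter windows of the same length (0.00609%). Both are overlapping windows of Nanog itself, which hold the same match, and 0 windows of other genes held it. An exact match of this length is rare by its length alone, and looser forms of the joint site were not searched. The count therefore does not show that such a site is particular to Nanog. The octamer letters alone occurred in 4.63% of windows and the SOX letters alone in 12.6%. Sox2 carried the octamer letters on the minus strand at -99 to -93, without the SOX letters. GC boxes, which occurred in 35.7% of all windows, were found once in Pou5f1, 2 times in Sox2, 4 times in Utf1, where the first pair overlaps by a base, and 3 times in Tcf3. Some of these matches lie beyond the printed stretch. The E-box letters CAGGTG, a sequence that E proteins bind, occurred in 20.2% of windows and among these genes only in Nanog, at -45 to -40. The letters TATAAA occurred in 13.6% of windows and in none of the 5. The observed number of CpG dinucleotides over that expected from base composition was 1.03 in Tcf3 and 0.819 in Sox2, against 0.615 in Utf1, 0.374 in Pou5f1 and 0.192 in Nanog, with a median of 0.384 over all windows. Letter matches are descriptions of sequence and do not show binding.

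**Figure D1:**
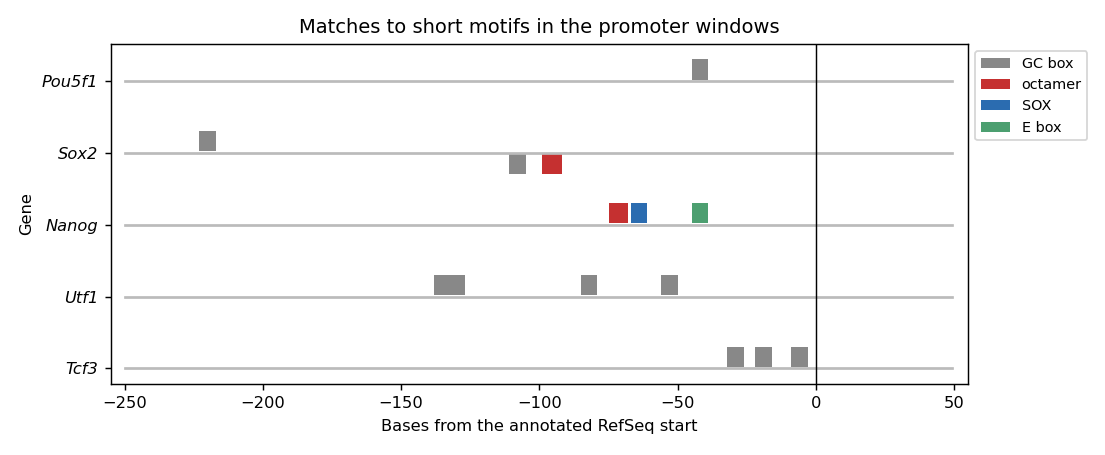
Positions of exact letter matches in the RefSeq promoter windows of 5 core factors, with bases from the annotated start on the horizontal axis and 1 line per gene; boxes above a line are on the strand of the gene and boxes below it on the other strand. Nanog is the gene with the octamer and the SOX letters next to each other, at -75 to -62.

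The libraries held about 22100000 to 29100000 fragments, a number read from the spacing of the lowest FPKM values, and the depth of NTC and shGldc is uncertain by a factor of 2 on the low side. The targeted gene was checked first. Gldc, the glycine decarboxylase subunit of the glycine cleavage system, stood at an FPKM of 74.7 in NTC and 2.07 in shGldc, which is 2.77% of the control, with 59.7 in untreated V6.5, 70.8 in iPSC and 0.123 in MEF. Several fibroblast markers, though not all, were higher in the untreated V6.5 library than in the other pluripotent libraries. Of 11 tested in NTC over V6.5, 8 were lower in NTC, 6 of them by 2-fold (10.3% of all genes), and 3 were higher, namely Col5a1 at 3.14 in V6.5 and 6.14 in NTC, Thy1 at 5.63 and 6.95 and Pdgfrb at 2.42 and 2.88. Of 11 tested in iPSC over V6.5, 10 were lower in iPSC, 6 by 2-fold (7.44% of all genes), and Thy1, at 8.30, was higher. Of 12 fibroblast markers, 11 reached an FPKM of 1 there, against 5 in each of iPSC, NTC and shGldc. Their summed FPKM, which Fn1 led in every pluripotent library, was 8984 in MEF, 175 in V6.5, 90.3 in iPSC, 131 in NTC and 96.8 in shGldc. Col1a1, the main fibrillar collagen gene, stood at 20.5 in V6.5 and at 1.68 or less in the other pluripotent libraries, and the proteoglycan gene Dcn stood at 1.93 in V6.5 and was listed at 0 in the other pluripotent libraries. RNA of fibroblasts and RNA of these genes made by the V6.5 cells cannot be told apart, the part of either in the V6.5 values was not tested, and the comparison of V6.5 with MEF was also made with NTC in its place. In shGldc over NTC, 6 fibroblast markers were tested and 3 were lower by 2-fold, beside 7.68% of all genes, namely Col1a1 at 1.24 and 0.125, Col5a1 at 6.14 and 2.72 and Thy1 at 6.95 and 1.11 in NTC and shGldc.

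Pou5f1 had the highest level of the 6 genes in every pluripotent library. Its FPKM was 0.309 in MEF, 975 in iPSC, 1055 in V6.5, 1215 in NTC and 915 in shGldc, which placed it between rank 61 and rank 100 of all genes in the 4 pluripotent libraries. Utf1 followed it, with an FPKM of 0.313 in MEF, 624 in iPSC, 740 in V6.5, 572 in NTC and 312 in shGldc. The shGldc library was the low one among the pluripotent libraries for both genes, slightly for Pou5f1 and clearly for Utf1.

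Nanog and Sox2 formed the next level. Nanog, a gene known for uneven levels from cell to cell in serum culture, had an FPKM of 0.163 in MEF, 190 in iPSC, 263 in V6.5, 249 in NTC and 223 in shGldc. Sox2 had an FPKM of 0.643 in MEF, 251 in iPSC, 197 in V6.5, 223 in NTC and 130 in shGldc. Their order was not the same in all libraries. Sox2 was above Nanog in iPSC, by 1.32 times in FPKM, and below it in V6.5 (0.747), NTC (0.894) and shGldc (0.585).

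Sall4 and Tcf3 were the lowest of the 6 in the pluripotent libraries. Sall4 had an FPKM of 0.0160 in MEF, 39.3 in iPSC, 32.0 in V6.5, 58.1 in NTC and 54.8 in shGldc. Tcf3 had an FPKM of 39.4 in MEF, 42.1 in iPSC, 63.6 in V6.5, 82.1 in NTC and 66.2 in shGldc. Sall4 was thus low only in MEF, whereas the MEF level of Tcf3 was close to that of iPSC. For both, the pair made in the shRNA experiment stood above the untreated V6.5 library. The 6 genes summed to 0.00876% of all FPKM in MEF, 0.368% in iPSC, 0.427% in V6.5, 0.455% in NTC and 0.315% in shGldc.

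**Figure D2:**
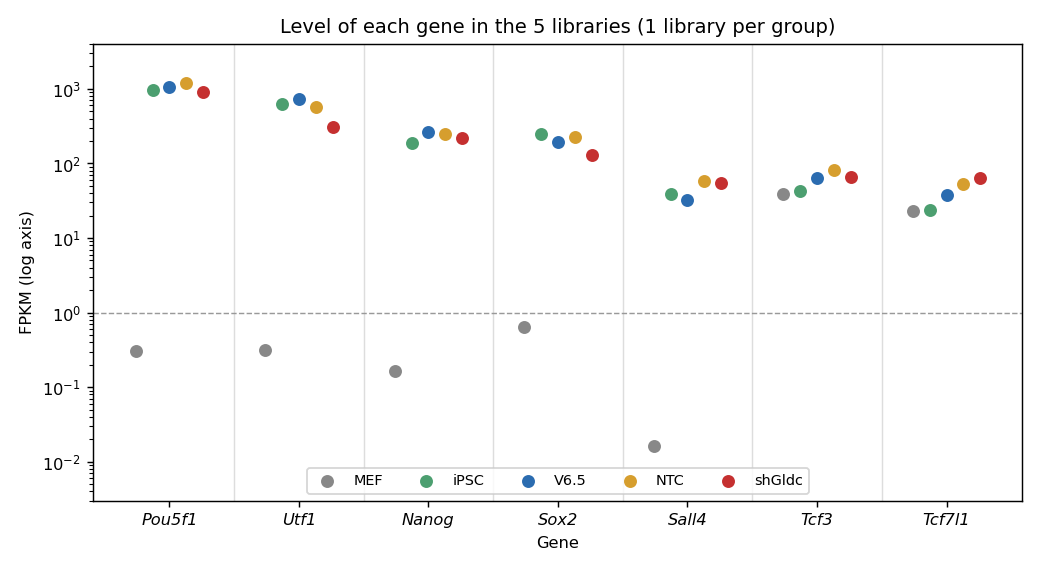
FPKM on a log axis of the 6 core factors and Tcf7l1 in the 5 libraries, 1 point per library, with a dashed line at an FPKM of 1. Pou5f1, Utf1, Nanog, Sox2 and Sall4 lie below the line in MEF and at 32.0 or above in every other library, whereas Tcf3 and Tcf7l1 lie at 22.7 or above in all 5.

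The relative levels within a library differed as well. Pou5f1 exceeded Sox2 by 3.89 times in FPKM in iPSC, 5.36 in V6.5, 5.45 in NTC and 7.02 in shGldc. Pou5f1 over Nanog ranged from 4.01 in V6.5 to 5.12 in iPSC, and its value in shGldc was 4.10. Pou5f1 over Utf1 was 1.56 in iPSC, 1.42 in V6.5, 2.12 in NTC and 2.93 in shGldc. Among the pluripotent libraries, shGldc therefore had the most Pou5f1 RNA for each unit of Sox2 and of Utf1, while its ratio to Nanog lay inside the range of the other libraries.

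The comparison of V6.5 and iPSC with MEF describes how far these genes, which were picked as pluripotency factors, differ from their fibroblast levels. Pou5f1, Sox2, Nanog, Sall4 and Utf1 were far higher in both pluripotent cell types, and Tcf3 was not. Ratios were computed as differences of log2(FPKM + 0.1), which understates the change of genes at low levels, over genes that reached an FPKM of 1 in either library, and all 6 genes passed that filter in every comparison. Pou5f1, Sox2, Nanog, Sall4 and Utf1 were under an FPKM of 1 in MEF. Against MEF they passed the filter only through the pluripotent library, so these 5 could not have been counted as lower. A gene was counted as different at 2-fold or more. In V6.5 over MEF, 5 of the 6 genes were counted as higher and 0 as lower. Of the 12840 genes tested, 30.3% were higher by 2-fold or more and 23.3% were lower by as much. Pou5f1 had a log2 ratio of 11.33, Utf1 of 10.81, Nanog of 9.97 and Sox2 of 8.05. Their places among all genes depend on the added constant. With 0.1, 1 and 0.01 added, 0, 1 and 8 genes had a higher ratio than Pou5f1, and 53, 13 and 243 a higher ratio than Sox2. The ratio of Sall4 (8.11) also depends on the added 0.1, because its MEF value rests on about 2 fragments. Tcf3 had a log2 ratio of 0.69, with 37.8% of tested genes above it. With NTC in place of V6.5, an alternative chosen after seeing the data, all 6 genes passed the line, because Tcf3 at 82.1 in NTC was just over double its 39.4 in MEF.

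In iPSC over MEF the picture was similar, with 5 genes higher and 0 lower by 2-fold, where 31.5% of 13032 genes were higher and 21.3% lower. Both comparisons share the MEF library. The log2 ratio was 11.22 for Pou5f1, 10.56 for Utf1, 9.50 for Nanog, 8.41 for Sall4 and 8.40 for Sox2. With 0.01 in place of 0.1 it was 10.10 for Nanog and 10.56 for Sall4, so the order of these 2 genes turned, and 20 genes then had a higher ratio than Pou5f1. The log2 ratio of Tcf3 was 0.09, and it became -0.21 when each library was rescaled to the same FPKM sum, so its direction is not set. That rescaling lowered the median of all genes from 0.31 to -0.01 here and from 0.25 to -0.01 in V6.5 over MEF.

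The size of these folds rests on few fragments in MEF. Pou5f1 was read from about 11 fragments there, Nanog from 9, Utf1 from 9, Sox2 from 33 and Sall4 from 2. Without the added 0.1, V6.5 over MEF was 3417-fold for Pou5f1, with a 95% exact interval of 1905 to 6828, and 306-fold for Sox2, with an interval of 215 to 439. For Nanog the fold was 1616 (interval 850 to 3532) and for Utf1 2368 (1310 to 5438). Sall4 in MEF was under the floor of 3 fragments, and its ratio of 1997 had an interval of 554 to 16530. The intervals cover counting error only, and they are too narrow even for that where reads from amplified libraries are not independent molecules. They overlap among Pou5f1, Nanog, Sall4 and Utf1, so the order of these folds is not resolved, while the Sox2 interval lies below the other intervals.

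**Figure D3:**
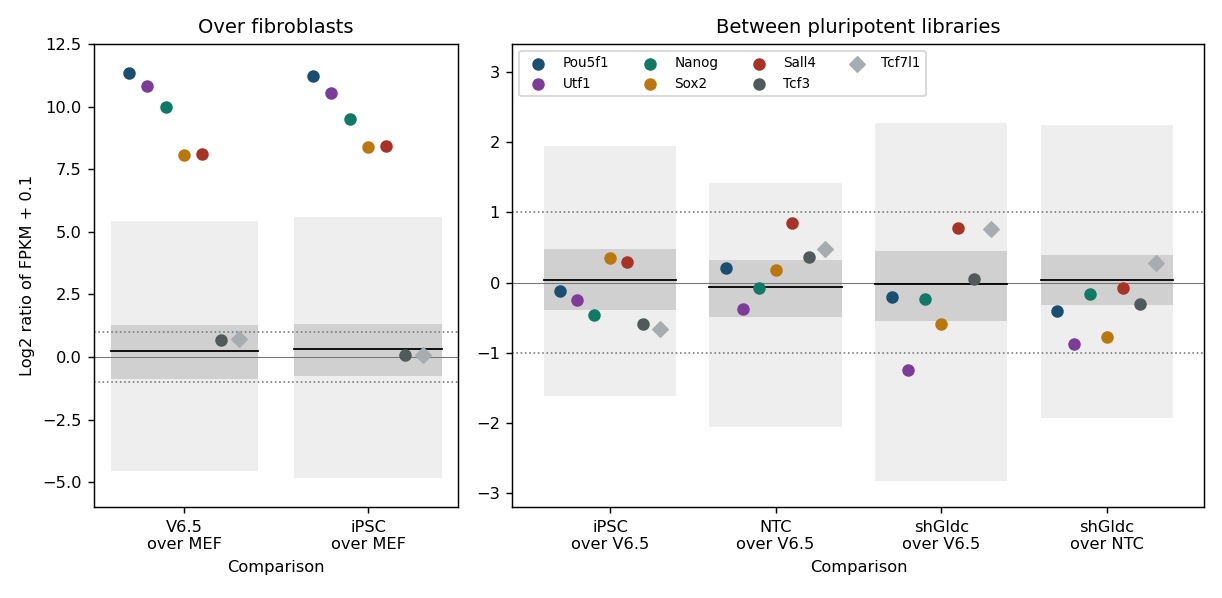
Log2 ratio of FPKM + 0.1 for the 6 core factors (circles) and Tcf7l1 (diamonds) in 6 comparisons; the light bar spans the central 95% of all genes tested, the dark bar their middle 50% and the black line their median, and dotted lines mark 2-fold. In the left panel 5 factors lie above the light bar at 8.05 or more, and in the right panel every point lies inside it.

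iPSC and V6.5 stand for pluripotency reached by reprogramming and from the embryo. In iPSC over V6.5, 0 of the 6 genes differed by 2-fold, where 10.1% of 12323 genes were higher and 7.44% lower. Among the 1773 genes with a mean FPKM of 50 or more in the pair, a level that Sall4 did not reach, 5.70% were higher and 4.79% lower, so a count of 0 says nothing particular to the 6. Sox2 and Sall4 were higher in iPSC, with log2 ratios of 0.35 and 0.30, and Pou5f1 (-0.11), Utf1 (-0.25), Nanog (-0.47) and Tcf3 (-0.59) were lower. Tcf3 at 66.2% of its V6.5 level was the only one past 1.5-fold. At either end of this order, 31.6% of genes lay above Sox2 and 16.6% below Tcf3. Vector RNA and RNA of the cells' own Pou5f1 and Sox2 cannot be told apart in the iPSC values.

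The knockdown comparison asks what happens to these factors when Gldc is reduced. All 6 were lower in shGldc than in NTC, and the amounts ranged widely, but 0 of the 6 reached 2-fold. Of 11969 genes, 8.97% were higher by 2-fold or more, 7.68% were lower by as much and 47.2% were lower by any amount. Low genes vary more, and among the 1844 genes with a mean FPKM of 50 or more in the pair, a level that all 6 reached, 1.95% were higher and 1.19% lower by 2-fold. A count of 0 of 6 is near those shares and says nothing particular to the 6. The robust SD of the log2 ratio was 0.31 over these genes and 0.53 over all genes. Utf1 stood at 54.6% of its control level (log2 ratio -0.87) and Sox2 at 58.5% (-0.77). These 2 genes were the ones past 1.5-fold, a line passed downwards by 14.9% of all genes. Pou5f1 stood at 75.3% (-0.41) and Tcf3 at 80.6% (-0.31). Nanog at 89.3% (-0.16) and Sall4 at 94.5% (-0.08) were nearest to the control. Of all genes tested, at any level, 9.20% had a lower ratio than Utf1, 10.8% than Sox2, 20.9% than Pou5f1 and 40.3% than Sall4. The median over the 6 was -0.36 and that over all genes 0.04. Tcf7l1, the other gene called Tcf3, was not lower but at 121% of NTC. None of the 6 changed direction under a pseudocount of 1 or 0.01, rescaling or centring, but this was no test of direction. A pseudocount cannot change the direction of a ratio, and rescaling and centring moved these 6 ratios further down.

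Counting error was small for these values. At the lower of the possible depths, the 6 genes were read from about 3390 to 25480 fragments in each of the NTC and shGldc libraries. The 95% exact interval of the shGldc level was 52.9 to 56.4% of NTC for Utf1, 56.2 to 60.8% for Sox2, 73.9 to 76.7% for Pou5f1, 77.0 to 84.4% for Tcf3, 86.5 to 92.2% for Nanog and 90.5 to 98.6% for Sall4. These intervals cover counting error only and may be too narrow for the reason given above. The spread between cultures is unknown. A pair of V6.5 libraries without the knockdown is given next, but it also differs by the control shRNA and the experiment and does not measure that spread. In bulk RNA, a smaller share of cells expressing a gene and less of its RNA in each cell cannot be told apart.

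NTC and untreated V6.5 differ by the control shRNA and by the experiment, and their values come from separately made tables. In NTC over V6.5, 0 of the 6 genes differed by 2-fold, where 4.99% of 12048 genes were higher and 10.3% lower. Sall4 was furthest from no difference, at 181% of V6.5 (log2 ratio 0.86), and 6.73% of genes had a higher ratio. Tcf3 had a log2 ratio of 0.37, Pou5f1 0.20, Sox2 0.18, Nanog -0.08 and Utf1 -0.37. Between these libraries without the knockdown, Sall4 and Tcf3 thus differed by more than between shGldc and NTC, where their log2 ratios were -0.08 and -0.31, and Utf1, Sox2, Pou5f1 and Nanog differed by less.

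In shGldc over untreated V6.5, Utf1 was the 1 gene of the 6 past 2-fold, at 42.2% of V6.5 (log2 ratio -1.24), where 9.89% of 12237 genes were higher and 13.9% lower. Sox2 stood at 66.3% (-0.59), Nanog at 84.7% (-0.24) and Pou5f1 at 86.7% (-0.21). Tcf3 stood at 104% (0.06) and Sall4 at 171% (0.77), so these 2 genes were below the control library and above the untreated library. Both comparisons use the shGldc library. Several fibroblast markers, though not all, were higher in the V6.5 library, with values given above, and their part in the ratios over V6.5 was not tested.

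The row named Tcf3 is taken as E2A from its symbol, since the annotation behind the FPKM values is not given. The gene of that symbol in GENCODE M21 (build GRCm38) lies at chr10:80409514-80433647 on the minus strand and has 14 transcripts, and Tcf7l1 lies at chr6:72626378-72789254. The primer pair that the study used to measure Tcf3 by qRT-PCR is shown because it tells which of the 2 genes that assay read.
Tcf3 forward: cgcaccagcagtacagatgag
Tcf3 reverse: cagcttggtctgcgcctta
Both primers matched exactly in 6 of the 14 annotated Tcf3 transcripts, with a product of 180 bases, and in no other gene. Neither matched any transcript of Tcf7l1. Tcf7l1 had an FPKM of 22.7 in MEF, 23.9 in iPSC, 37.6 in V6.5, 52.7 in NTC and 63.8 in shGldc. It was highest in shGldc, at 121% of NTC (log2 ratio 0.28), where Tcf3 was at 80.6%. The FPKM of Tcf3 over that of Tcf7l1 was between 1.56 and 1.76 in the other 4 libraries and 1.04 in shGldc. Neither gene passed 2-fold against MEF in V6.5 or iPSC, with log2 ratios of 0.69 and 0.09 for Tcf3 and 0.73 and 0.07 for Tcf7l1.

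The other genes were placed by annotation too. Pou5f1 is at chr17:35506018-35510772 on the plus strand with 5 exons in its longest transcript, and an antisense gene, Gm19553, overlaps it. Sox2 is a gene of 1 exon at chr3:34650405-34652461 inside Sox2ot, which runs on the same strand, so unspliced Sox2ot RNA over that exon would be read as Sox2. The RefSeq start used for the Sox2 promoter window lies upstream of this GENCODE start, and the motif positions given for Sox2 count from the RefSeq start. Nanog is at chr6:122707489-122714633 with 4 exons, Sall4 at chr2:168748332-168767943 on the minus strand with 4 exons, and Utf1 at chr7:139943789-139945112 with 2 exons. Sall4 is overlapped on the other strand by Gm14261. The counting is not stated to use strand. Exact stretches of 50 bases shared with transcripts of other genes made up 0.561% of those of Pou5f1, all with Gm5712, and 4.53% of those of Nanog, mostly with Nanog-ps1. Sox2, Sall4, Utf1 and Tcf3 shared none.

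Relatives of the core factors were read to see whether their families behaved in the same way. The counts of every list are read against the shares of all genes, which past 2-fold were 8.97% higher and 7.68% lower in shGldc over NTC, 30.3% and 23.3% in V6.5 over MEF and 31.5% and 21.3% in iPSC over MEF. With few genes in a list, a count near these shares says nothing particular to it. Of 14 other POU genes, 5 were tested in shGldc over NTC, and 0 were higher and 2 lower by 2-fold, with a median log2 ratio of -0.73. Pou3f1 (Oct6), which is known from primed pluripotent and neural cells, had an FPKM of 0.147 in MEF, 9.58 in iPSC, 9.30 in V6.5, 7.02 in NTC and 1.01 in shGldc. Pou2f3, a factor of skin and tuft cells, stood at 6.07 in NTC and 0.331 in shGldc, but also at only 1.43 in untreated V6.5. Both were thus lower in shGldc by far more than Pou5f1 (14.4% and 5.44% of NTC), at levels far below it. In V6.5 over MEF, 3 of 5 tested POU genes were higher by 2-fold and 1 lower (30.3% and 23.3% of all genes), with Pou3f1 the highest (5.25) and Pou3f3, at 1.39 in MEF and 0.409 in V6.5, the lowest.

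Of 18 other SOX genes, 10 were tested in shGldc over NTC, with 1 higher, 2 lower (8.97% and 7.68% of all genes) and a median of 0.06. Sox3, the closest relative of Sox2 together with Sox1, stood at 0.0591 in MEF, 8.16 in iPSC, 7.13 in V6.5, 13.4 in NTC and 27.8 in shGldc. Sox2 exceeded Sox3 by 16.6 times in FPKM in NTC and by 4.70 times in shGldc. Sox15, which can pair with Oct4 on DNA and was the most abundant of the other SOX genes in V6.5, stood at 0.0880 in MEF, 38.5 in iPSC, 78.8 in V6.5, 36.9 in NTC and 40.9 in shGldc. Sox15 had the highest ratio of the other SOX genes over MEF, with a log2 ratio of 8.71 in V6.5 and 7.68 in iPSC beside 8.05 and 8.40 for Sox2, and was close between NTC and shGldc. Sox10, a neural crest factor, was at 1.59 in NTC and 0.0513 in shGldc, and Sox18, an endothelial factor, was at 3.44 and 0.397. The cartilage factor Sox9 was the lowest in V6.5 over MEF, at 4.44 in MEF and 0.0929 in V6.5.

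Of the other 3 SALL genes, 0 differed by 2-fold in shGldc over NTC, where 8.97% of all genes were higher and 7.68% lower. Sall1, the most abundant of them in the V6.5 library, stood at 0.312 in MEF, 5.66 in iPSC, 17.0 in V6.5, 11.2 in NTC and 7.07 in shGldc, or 63.0% of NTC. Sall4 exceeded Sall1 by 1.88 times in FPKM in V6.5, 5.18 in NTC, 6.96 in iPSC and 7.76 in shGldc. Sall2 was at 5.53 in MEF and 4.05 in V6.5. Sall3 was at 2.01 in NTC and 1.06 in shGldc.

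The other E proteins and the Id genes, whose products bind E proteins and block them, were all more than 2-fold lower in V6.5 than in MEF (6 of 6, beside 23.3% of all genes, with a median log2 ratio of -2.07 beside 0.25). In iPSC over MEF, 4 of the 6 were lower and 1 was higher by 2-fold (21.3% and 31.5% of all genes, median -1.79), with Id1 at 46.3 in MEF and 96.0 in iPSC and Id2 at 16.8 and 29.8. Tcf12 stood at 20.3 in MEF and 3.44 in V6.5, and Tcf4 at 8.48 and 1.38, and Tcf3 was by far the most abundant of the 3 E protein genes per length in all pluripotent libraries. In shGldc over NTC, 1 of the 6 was higher and 2 were lower by 2-fold (8.97% and 7.68% of all genes). Id1 stood at 67.0 in NTC and 25.6 in shGldc, Tcf4 at 1.67 and 0.440, and Id2 at 1.05 and 3.60. Id3 stood at 14.1 in V6.5, 97.7 in NTC and 49.7 in shGldc. The Id genes also differed between the libraries without the knockdown, with log2 ratios in NTC over V6.5 of 2.78 for Id3, 2.14 for Id1 and -2.35 for Id2. The count of 6 lower than MEF does not hold with NTC in place of V6.5. Id1 stood at 46.3 in MEF and 67.0 in NTC, and Id3 at 178 and 97.7.

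In the TCF/LEF family, 1 of 4 genes was higher and 0 lower by 2-fold in shGldc over NTC (8.97% and 7.68% of all genes). Lef1, an activator of Wnt targets, stood at 1.16 in V6.5, 1.11 in NTC and 5.01 in shGldc. Tcf7 stood at 0.640 in MEF, 24.6 in V6.5, 35.3 in NTC and 44.3 in shGldc. Tcf7l2 had the lowest ratio, at 1.296 in NTC and 0.621 in shGldc. Tcf7l1 was the most abundant of the family in every library.

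Classical targets of Oct4 and Sox2 did not move together in the knockdown library. Of 7 genes, 1 was higher and 1 lower by 2-fold in shGldc over NTC (8.97% and 7.68% of all genes), with a median of 0.20, although 6 of 7 were higher in V6.5 than in MEF (30.3% of all genes, median 8.99). Fgf4, whose enhancer is a textbook site of joint Oct4 and Sox2 binding, stood at 0.100 in MEF, 81.2 in iPSC, 102 in V6.5, 59.9 in NTC and 18.0 in shGldc. Its shGldc level was 30.0% of NTC, lower than that of Sox2 or Utf1. Lefty1, a Nodal inhibitor, stood at 37.8 in V6.5, 3.54 in NTC, 34.3 in shGldc and 0.888 in iPSC. Its NTC value was therefore the low one among the V6.5 libraries, with log2 ratios of -3.38 in NTC over V6.5 and 3.24 in shGldc over NTC. Tdgf1, the Nodal co-receptor Cripto, stood at 237 in NTC and 131 in shGldc (55.0%). Of 8 markers of pluripotent cells, which include Pou5f1, Sox2 and Nanog, 7 were lower in shGldc than in NTC (47.2% of all genes) and 1, Fgf4, was lower by 2-fold (7.68%), with a median of -0.56. Zfp42 (Rex1) stood at 150 in NTC and 123 in shGldc, and Spp1, at 174 in MEF and 118 in V6.5, was the 1 target not higher in V6.5.

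Partners of the core factors were compared in the same way. Of 18 co-factor genes, 0 were higher and 1 lower by 2-fold in shGldc over NTC, where 8.97% of all genes were higher and 7.68% lower. By any amount 14 of 18 were lower, beside 47.2% of all genes, with a median of -0.19. Nr0b1 (Dax1), an orphan receptor that binds Oct4, stood at 71.7 in iPSC, 37.7 in V6.5, 40.2 in NTC and 19.3 in shGldc, or 48.1% of NTC. Esrrb stood at 208 in NTC and 127 in shGldc (60.9%), and Mbd3, a subunit of the NuRD repressor complex, had the highest ratio, at 136 and 193. Parp1, the most abundant of the list in V6.5, stood at 310 in V6.5, 304 in NTC and 207 in shGldc. In V6.5 over MEF, 10 of the 18 were higher by 2-fold and 0 lower (30.3% and 23.3% of all genes), with Esrrb the highest (9.44) and the NuRD subunit Gatad2b the lowest (-0.27).

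Some genes of early differentiated lineages were higher in shGldc and others were within 2-fold. Of 13 such genes, 9 were tested in shGldc over NTC, and 4 were higher and 0 lower by 2-fold, where 8.97% of all genes were higher and 7.68% lower, with a median of 0.34. Gata6, a primitive endoderm factor, stood at 0.646 in V6.5, 0.462 in NTC and 8.22 in shGldc. Cdx2, the trophectoderm factor that is mutually exclusive with Oct4 in the embryo, stood at 0.274 in V6.5, 5.41 in NTC and 33.3 in shGldc. Gata4 stood at 2.38 and 7.84 in NTC and shGldc, and Gata3 at 0.283 and 1.20. The neural factor Sox1, the most abundant of the list in V6.5 at 7.62, stood at 1.43 in NTC and 1.15 in shGldc. The mesoderm genes T, at 4.33 and 5.08, and Eomes, at 7.97 and 10.1, were within 2-fold. Cdx2 also differed between NTC and V6.5, by a log2 ratio of 3.88. Of 9 of these genes tested in NTC over V6.5, 3 were higher and 3 lower by 2-fold (4.99% and 10.3% of all genes). The summed FPKM of the 13 genes was 29.7 in V6.5, 28.4 in NTC, 73.9 in shGldc, 45.1 in iPSC and 31.6 in MEF, and Cdx2 was the largest part of the shGldc sum. Of the defining markers, Elf5 was listed at 0 in NTC and at 0.0310 in shGldc. The part of these genes, or of cells expressing them, in the lower core factor levels was not tested. Of 12 housekeeping genes, 0 differed by 2-fold in shGldc over NTC (8.97% of all genes were higher and 7.68% lower), with a median of 0.03 and a range from -0.74 for Pgk1 to 0.46 for Gapdh.

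**Figure D4:**
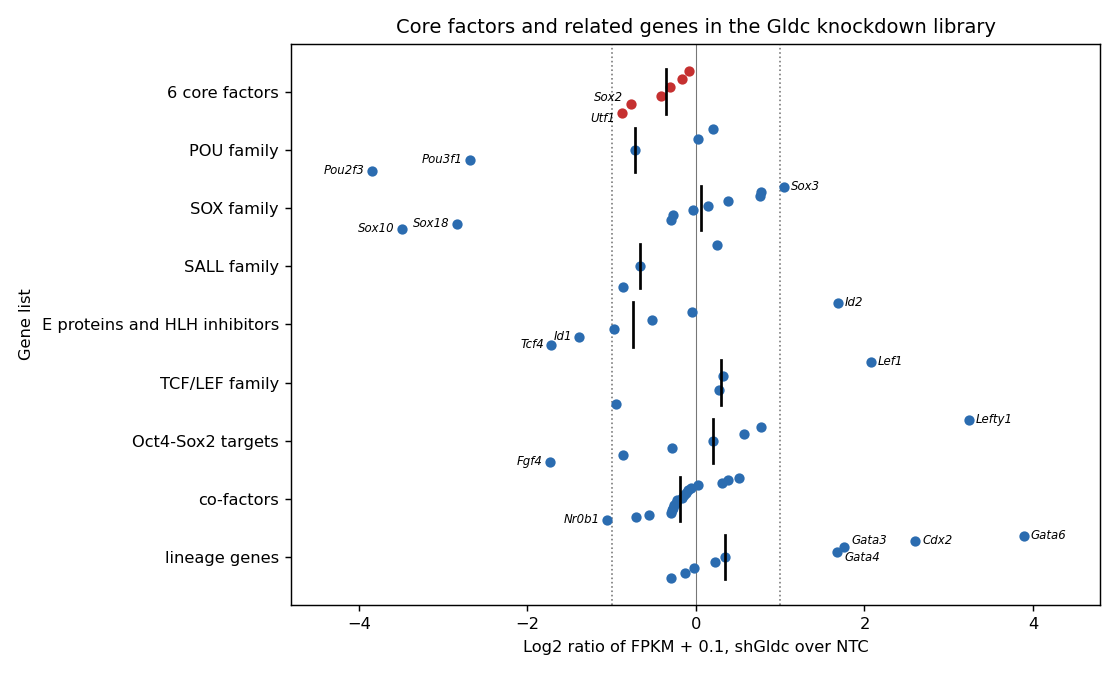
Log2 ratio of FPKM + 0.1 in shGldc over NTC for the 6 core factors (red) and for related gene lists (blue), 1 point per gene that reached an FPKM of 1 in NTC or shGldc; black bars are medians, dotted lines mark 2-fold and genes past it are named, as are Sox2 and Utf1. The 6 core factors span -0.87 to -0.08, and lineage genes include 4 points above the 2-fold line.

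The genes whose profiles were most like those of the core factors were found by the Euclidean distance between log2(FPKM + 0.1) values over the 5 libraries after each gene's mean was subtracted, among 13656 genes. Nearest to Pou5f1 were Utf1 (distance 1.19), Nanog (1.40) and Dppa5a (1.52). Nearest to Nanog were Zfp42 (0.369), Rbmxl2 (0.511) and Cdh1 (0.547), and nearest to Utf1 were Tdgf1 (0.620), Dppa5a (0.988) and Esrrb (1.02). Sox2 was nearest to Eras (0.494), Gpa33 (0.668) and Nr0b1 (0.710), genes that shared its high iPSC and low shGldc levels. Sall4 was nearest to Foxh1 (0.336), Camsap3 (0.692) and Tfcp2l1 (0.751), each of which was higher in NTC and shGldc than in V6.5 and iPSC. Tcf3 was nearest to Cchcr1 (0.133), Slc16a10 (0.164) and Ing1 (0.169), and Pou5f1 ranked 13642 of the 13656 in distance from it. Each profile holds 5 libraries, 1 per group, so these lists describe 5 points and no more.

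The nearest 2 protein-coding genes on each side of the 6 genes gave 24 chromosomal neighbours. Their distances differed widely, and Atp11b and Dcun1d1 beside Sox2 lay 1101645 and 1239644 bases away. In V6.5 over MEF, 11 of the 21 tested were higher and 3 lower by 2-fold, with a median of 1.08, where 30.3% of all genes were higher and 23.3% lower with a median of 0.25. Around Nanog, which lies in a cluster of pluripotency genes, the germ cell gene Dppa3 was listed at 0 in MEF and at 60.6 in V6.5, Gdf3 stood at 0.105 and 44.8, and the glucose transporter gene Slc2a3 at 3.77 and 455. Foxj2, on the far side of Slc2a3, stood at 6.03 and 3.07. Beside Pou5f1, H2-Q10 was listed at 0 in MEF and stood at 3.66 in V6.5, H2-Q7 at 0.0845 and 5.52, Tcf19 at 13.9 and 9.77 and Cchcr1 at 10.4 and 16.8. Beside Sall4, Atp9a stood at 5.79 and 28.9 and Zfp64 at 13.7 and 29.1. The neighbours of Utf1 were all at an FPKM of 1.36 or below in V6.5. In shGldc over NTC, 0 of the 18 tested neighbours were higher and 4 lower by 2-fold, with a median of 0.15, where 8.97% of all genes were higher and 7.68% lower. Those beside Pou5f1 were the class I histocompatibility genes H2-Q10, at 2.62 in NTC and 0.571 in shGldc, and H2-Q7, at 4.47 and 0.774, which belong to a family of near-identical copies and are uncertain. The other 2 were Nfatc2 beside Sall4, at 1.302 and 0.530, and Atp8b3 beside Tcf3, at 1.22 and 0.518. Around Nanog, Dppa3 stood at 11.7 in NTC and 20.3 in shGldc, Gdf3 at 52.9 and 73.3 and Slc2a3 at 497 and 557, so these 3 neighbours were higher where Nanog was slightly lower.

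**Figure D5:**
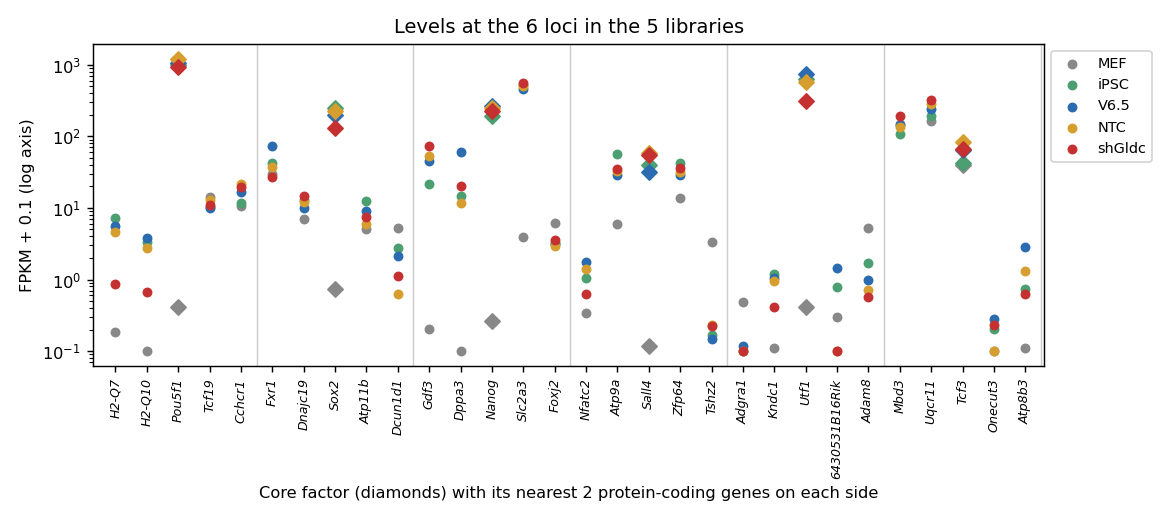
FPKM + 0.1 on a log axis of each core factor (diamonds) and its nearest 2 protein-coding genes on each side (circles), in chromosomal order, in the 5 libraries. Gdf3, Dppa3 and Slc2a3 beside Nanog lie far below their other values in MEF, as Nanog does, whereas the genes beside Tcf3 and Sox2 include several at like levels in all 5.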

How the data were processed

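RNA-seq libraries of mouse MEF, iPSC, V6.5, NTC and shGldc cells (1 each) were analysed. The deposited values are gene-level FPKM in 2 tables of 24421 genes, 1 for MEF, iPSC and V6.5 and 1 for NTC and shGldc. The authors mapped reads with TopHat2 2.1.0 to mm10 (mm9 is also named in the submitters' processing notes), assembled transcripts with StringTie 1.3.4d and computed FPKM with Ballgown, and SAMtools 1.7 is named as well. The gene annotation they used is not given in the sources used here. FPKM corrects for length and depth but not for RNA composition, and ratios between the tables also hold any difference between them.

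Ratios were log2(FPKM + 0.1) differences of genes that reached an FPKM of 1 in either library. With 1 library per group no test was run; a gene is counted at 2-fold, beside the share of all tested genes past it. The depth was read from the spacing of the lowest FPKM values over 5723 single-transcript genes, and fragment numbers and 95% exact binomial intervals follow from it. Fragments at or under 3 were taken as the floor. The scripts were tested on simulated data. Genes were placed with GENCODE M21 (GRCm38), and promoter windows came from RefSeq (GRCm38.p6). Transcripts were searched for exact primer matches.

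The 6 genes and the lists were chosen with earlier results of these data known. Beside them the text names Gldc, Tcf7l1, the gene of each list with the highest level in V6.5 and those with the highest and lowest ratio in V6.5 over MEF and shGldc over NTC, list genes past 2-fold in shGldc over NTC, the 3 nearest profiles of each gene and its nearest 2 protein-coding neighbours on each side. A few further list genes were named after their values were seen. Alternatives were pseudocounts of 1 and 0.01, rescaling to 1 FPKM sum, centring on the median, no filter and an FPKM of at least 5. Calculations ran in Python 3.11.15 with scipy 1.17.1, pandas 2.3.3 and numpy 2.4.6, and plots were drawn with matplotlib 3.10.9.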

Additional observations from a re-analysis of the deposited data

How the results depend on the processing

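The counts of core factors past 2-fold were the same in each of the 6 comparisons under a pseudocount of 1 or 0.01, rescaling to a common FPKM sum, centring on the median, no filter and an FPKM of at least 5. The changes of filter could not alter these counts, because all 6 genes stood at an FPKM of 32.0 or more in every pluripotent library. Of 144 single-gene ratios under the pseudocounts and scalings, 130 moved by less than 0.59 on the log2 scale, the robust SD of NTC over V6.5, and 14 moved by more. All 14 were ratios over MEF under another pseudocount, where few fragments stand in the denominator. The log2 ratio of Sall4 in V6.5 over MEF, for example, was 5.02 with a pseudocount of 1 and 10.26 with 0.01. All 30 values of shGldc over NTC, as reported and under alternatives, were negative. A pseudocount cannot change their sign, and rescaling and centring moved the ratios of the 6 genes down, so this count adds no support. With a line of 1.5-fold, chosen after seeing the data, the counts became 1 in iPSC over V6.5, 2 in shGldc over NTC, 1 in NTC over V6.5 and 3 in shGldc over V6.5. NTC in place of V6.5, also chosen after seeing the data, gave 6 in place of 5 over MEF and 0 in iPSC over NTC. No paired analysis was possible because the columns carry no replicate numbers and each group has 1 library, and for the same reason no library could be left out.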
